A study of Mus musculus with 8 samples.

Results

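The collagen genes of the mouse were examined in S0 cells sorted from the fetal liver at E12.5. Members were all protein-coding genes named Col, a number, a and a number, which gave 44 of the 52636 genes in the count table. By the fibers or sheets that their chains build, 11 were fibrillar, 8 belonged to the basement membrane and 25 were placed in an other class. The 8 libraries were 4 WT and 4 DKO, the latter from embryos lacking both Vps13a and Vps13c in the whole body. The Vps13a allele had lost exon 6 through a β-actin-Cre, and the mice were kept on a C57BL/6J background. The labels give the WT libraries as wild type and name no other allele. The paper bred DKO embryos by intercrossing Vps13a+/-/Vps13c-/- mice, a cross that gives no embryo wild type for Vps13c. WT embryos that were wild type for both genes would then not be littermates of DKO. Genotype and litter could not be told apart in that case. S0 cells are negative for CD71 and Ter119, the surface proteins by which erythroid stages are sorted, and cells bearing lymphoid or myeloid lineage antigens had been gated out. That gate used no antibody against mesenchymal, hepatic or endothelial cells.

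Collagens are secreted proteins whose chains wind around each other in a helix rich in glycine and hydroxyproline. Fibrillar chains (types I, II, III, V, XI) assemble outside the cell into the rope-like fibers of connective tissue. Type IV chains form the sheet-like network under epithelia and around vessels, and types XV and XVIII lie beside it. In the fetal liver, fibrillar collagens are known as products of mesenchymal cells such as stellate cells, whereas erythroid precursors are not known as a source of matrix.

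Counts per gene summed to between 36981439 and 50886469 in each library. After genes with too few counts were removed, 17378 genes remained, among them 34 of the 44 collagen genes. Values are normalized counts, meaning counts scaled to a common library size, and a level per kb is a normalized count divided by the exon length of the gene in kilobases. Fold changes are DKO over WT from the quasi-likelihood test of edgeR, with p adjusted over all 17378 genes, and a gene was called when adjusted p was under 0.05 and the log2 fold change above 1 or below -1. Vps13a was lower in DKO (log2 fold change -1.29, SE 0.17, adjusted p = 0.00247), while Vps13c was not called (0.49, adjusted p = 0.182). The count over the whole Vps13c gene therefore does not check its knockout. DKO 1 held the highest value of the 8 libraries for 24.2% of all genes tested, and each other library for 6.16% to 15.2%. Xist lay at or under 30.1 normalized counts in WT and at 62.3 in DKO 3, but between 18030 and 27040 in the other DKO libraries, so genotype and the sex of the embryo can be set apart only through DKO 3.

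Collagen transcripts, summed per kb over all members, lay at a higher level in each DKO library (2350 to 7300) than in any WT library (764 to 1470). Of the 34 members tested, 15 were called higher, or 5 of 9 fibrillar, 3 of 7 basement membrane and 7 of 18 other genes, against 6.19% of all genes tested. No member was called lower, against 2.43% of all genes, and none had an unadjusted edgeR p under 0.05 in that direction, where DESeq2 also called 0. In 16 members every DKO library lay above every WT library, a pattern found in 13.5% of all genes tested. No member had every DKO library below every WT library, against 14.6% of all genes. The median log2 fold change was 2.74 in the fibrillar, 2.69 in the basement membrane and 2.79 in the other class, and 0.03 over all genes tested. Without DKO 1 the class medians were 1.84, 1.80 and 1.97, and without DKO 3 that of the basement membrane class was 1.50. These medians leave out the 10 members with too few counts, and a member high in DKO alone could pass the filter. In these sorted bulk samples, more cells of a collagen-producing type and more collagen RNA per cell cannot be told apart.

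**Figure D1:**
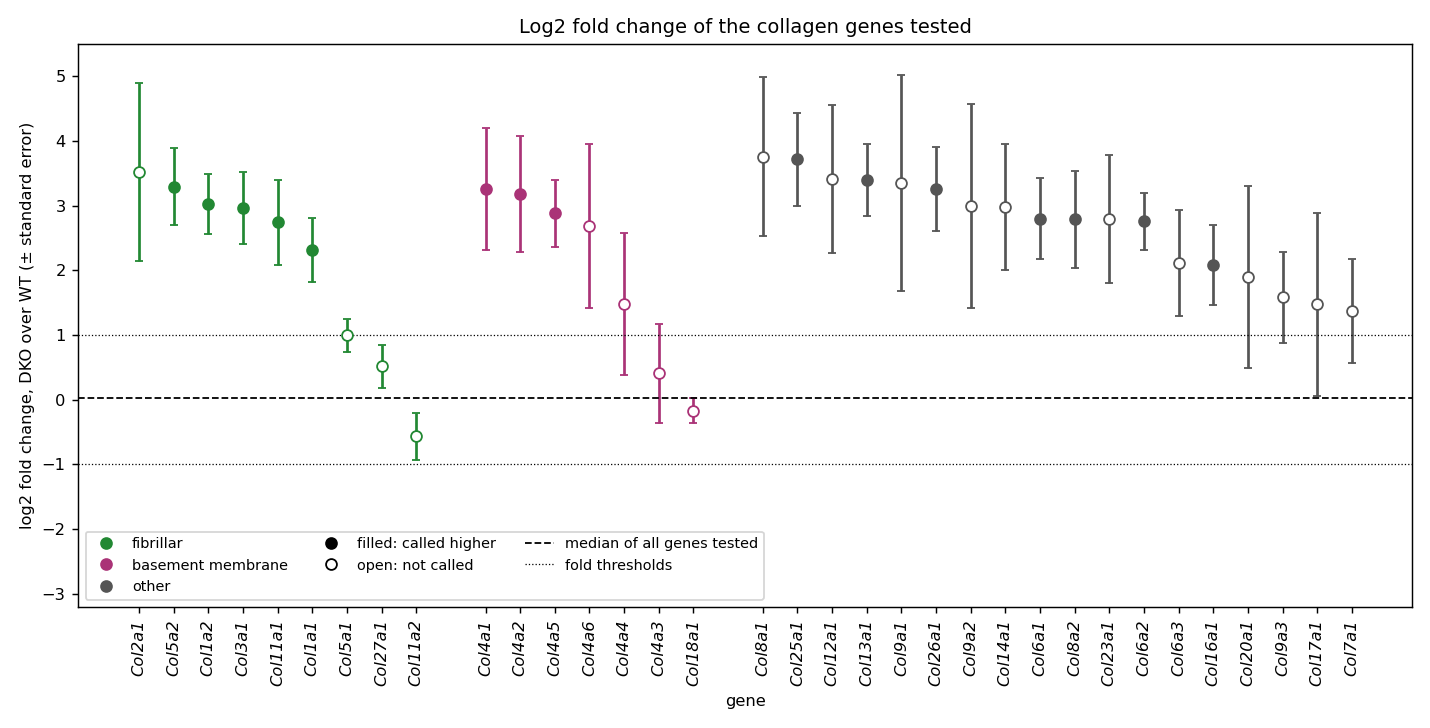
Log2 fold change of the 34 collagen genes tested, DKO over WT, with the edgeR standard error as bars, grouped by class; filled points are the 15 genes called higher and the dashed line is the median of all genes tested (0.03). Only Col11a2 and Col18a1 lie below 0.

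The fibrillar genes included the most abundant collagens of the DKO libraries. Col1a1, the α1 chain of type I collagen (ENSMUSG00000001506.10), lies on chromosome 11 of GRCm38, on the plus strand from 94936224 to 94953042. WT 1 to 4 had 1114, 537, 2411 and 1580 normalized counts, and DKO 1 to 4 had 13060, 4389, 4102 and 6617. The lowest DKO library lay above the highest WT library, WT 3. The means were 1410 ± 792 and 7041 ± 4160 (SD over 4 libraries here and below), with a log2 fold change of 2.32 (SE 0.49, edgeR adjusted p = 0.0121).

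Its partner Col1a2 (chromosome 6 from 4504814 to 4541544) had 633.6, 426.9, 1203 and 946.8 in WT and 12550, 3316, 4421 and 5882 in DKO. WT 2 was again the lowest and DKO 1 the highest library. The rise from 802.6 ± 342 to 6542 ± 4140 gave a log2 fold change of 3.03 (SE 0.46, edgeR adjusted p = 0.00384). Col3a1, the chain of type III collagen that forms fibers together with type I (chromosome 1 from 45311538 to 45349706), had 637.7, 283.1, 1083 and 889.1 in WT and 11970, 2613, 3117 and 4952 in DKO. Its log2 fold change was 2.97 (SE 0.55, edgeR adjusted p = 0.00759), and its order of libraries within WT was that of Col1a2.

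Types V and XI are minor fibrillar collagens that set the width of the fibers. Col5a2 (chromosome 1 from 45374321 to 45503282, 24614 bases from Col3a1 and pointing toward it) had 129.9, 56.8, 165.9 and 118 in WT and 2746, 513.8, 631.2 and 721 in DKO (log2 fold change 3.29, SE 0.59, edgeR adjusted p = 0.0067). Col11a1 (chromosome 3 from 114030540 to 114220718) had 53.4, 19.8, 94.7 and 60.3 in WT and 856.3, 160.4, 152.6 and 359.4 in DKO (log2 fold change 2.74, SE 0.66, edgeR adjusted p = 0.0185). The groups were apart for both genes, but the Col11a1 call was lost without WT 1 (adjusted p = 0.0619) or without WT 4 (0.0585).

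Col5a1, the partner of Col5a2 (chromosome 2 from 27886425 to 28039514), had 356, 352.9, 523.8 and 563 in WT and 1362, 749.7, 766.7 and 699 in DKO. Every DKO library lay above every WT library, but the log2 fold change of 0.99 (SE 0.26, edgeR adjusted p = 0.0261) fell just short of the fold threshold. It was 1.01 for library size alone and 1.11 for upper-quartile scaling, which passed, and 0.72 without DKO 1, which did not. The edgeR adjusted p was above 0.05 without WT 1 (0.0798), without WT 2 (0.0752) and with replicate number as a block (0.0764). Among the remaining fibrillar genes, Col27a1 had 281.5 ± 80.5 in WT and 403.6 ± 160 in DKO (log2 fold change 0.52, edgeR adjusted p = 0.297). Col11a2 had 208.9 to 247.9 in WT and 72.5, 262.7, 148.9 and 146.3 in DKO (log2 fold change -0.57, edgeR adjusted p = 0.289), so that DKO 2 lay above all WT libraries and DKO 1 lowest of all. The cartilage chain Col2a1 reached 1014 in DKO 1 and 183.9 in DKO 4, against 0 to 59.1 in WT and 14.7 and 47.7 in DKO 3 and 2 (log2 fold change 3.52, SE 1.37, edgeR adjusted p = 0.0961). Col5a3 and Col24a1 had too few counts to be tested.

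**Figure D2:**
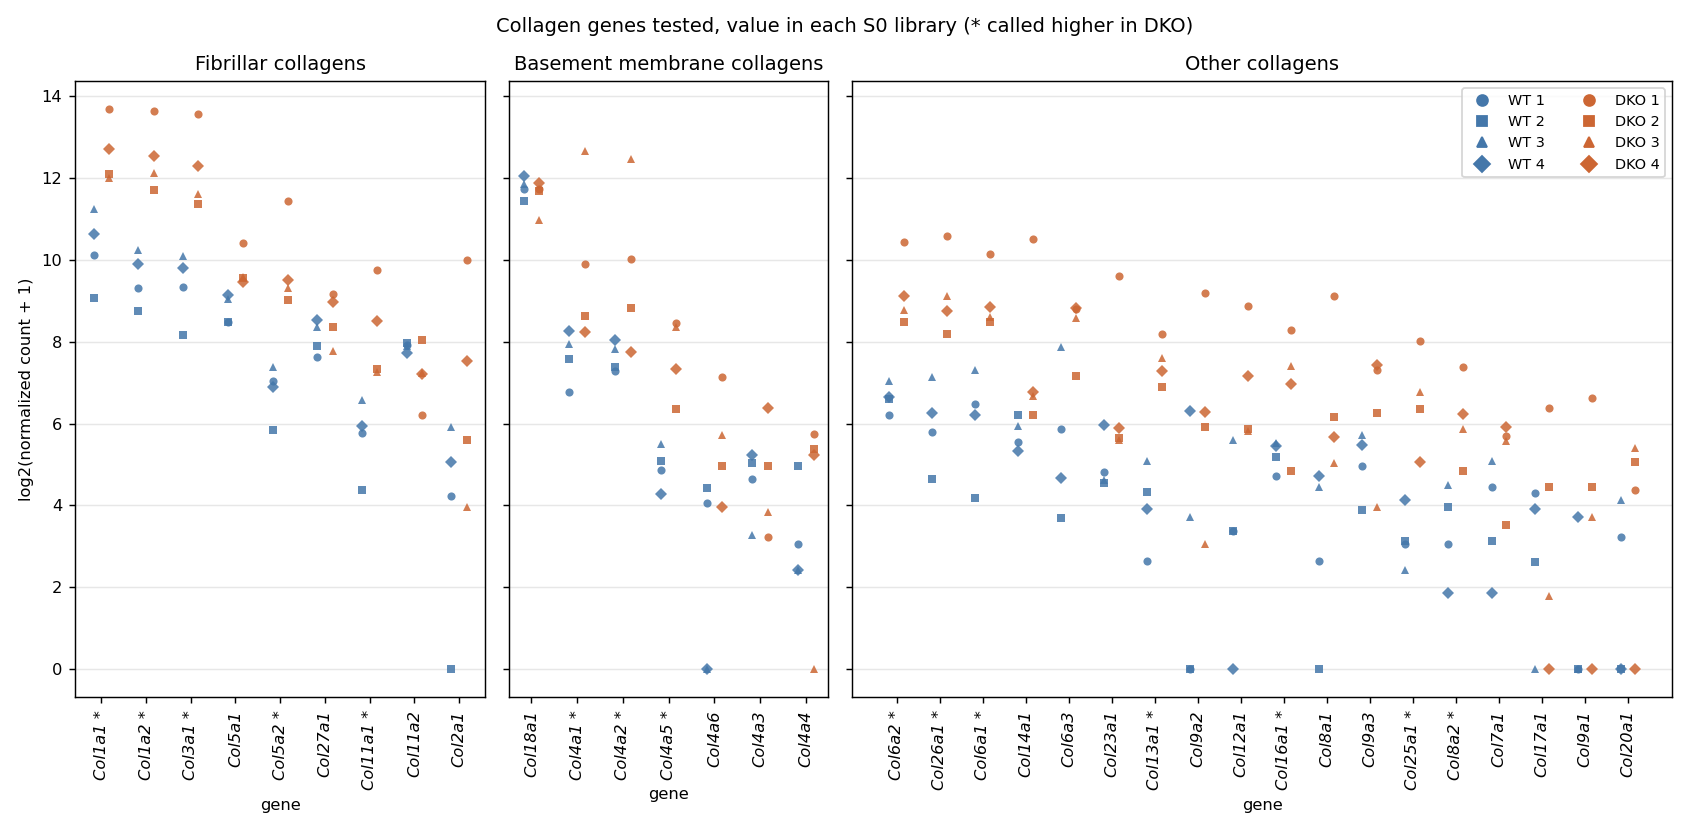
Normalized counts of the 34 collagen genes tested, as log2(normalized count + 1), in each of the 4 WT (blue) and 4 DKO (orange) libraries, with 1 marker shape per replicate number and an asterisk for genes called higher. DKO 1 is the highest library in 25 of the 34 genes, and DKO 3 in Col4a1 and Col4a2.

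Upstream sequence was taken from the RefSeq promoter windows of GRCm38.p6, which hold 35 of the 44 members and neither Col1a1 nor Col5a2. The 250 bases before the starts of Col1a2 and Col3a1 are shown because these are the 2 most abundant called members in that table, at chr6:4505368-4505617 and chr1:45311288-45311537, both on the plus strand. Neither window touches an annotated exon, and that of Col1a2 lies inside the GENCODE gene, whose annotated start is farther upstream. Capitals mark the letters CCAAT, searched as CCAAT and as ATTGG on the other strand.
Col1a2: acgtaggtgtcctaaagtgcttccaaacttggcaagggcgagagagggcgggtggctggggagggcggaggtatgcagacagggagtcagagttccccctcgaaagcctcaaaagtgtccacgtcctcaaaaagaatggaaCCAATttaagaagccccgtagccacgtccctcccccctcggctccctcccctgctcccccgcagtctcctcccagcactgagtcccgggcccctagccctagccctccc
Col3a1: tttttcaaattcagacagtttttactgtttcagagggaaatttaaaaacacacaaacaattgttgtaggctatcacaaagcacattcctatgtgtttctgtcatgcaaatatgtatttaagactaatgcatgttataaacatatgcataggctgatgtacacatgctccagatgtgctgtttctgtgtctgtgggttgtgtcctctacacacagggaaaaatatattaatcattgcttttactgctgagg
The Col1a2 window holds 1 match, at position -109 from the start, and the Col3a1 window holds 0. Of the 35 members with a window, 13 hold a match in any of their 38 windows (37.1%). Of all 32851 windows of the same length, counted singly, 33.8% hold one, so these shares are not the same measure. Among the members with a window, 7 of 12 called higher and 4 of 14 tested and not called hold it. The letters TATAAA, or TTTATA on the other strand, occur in 14.3% of the members and in 12.4% of all windows, counted in the same unlike ways. A match is a description of the letters in the window and no evidence of a bound factor.

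The basement membrane genes did not move together. Col18a1, which carries the endostatin fragment (ENSMUSG00000001435.15, minus strand of chromosome 10 from 77052178 to 77166548), was the most abundant collagen of WT per length, at 497 normalized counts per kb, ahead of Col1a1 at 215. WT libraries held 3356, 2769, 3649 and 4189 normalized counts of it and DKO libraries 3388, 3262, 1991 and 3742, and the groups overlapped except for the low DKO 3. The log2 fold change was -0.17 (SE 0.19, edgeR adjusted p = 0.562; exact two-sided permutation p = 0.514).

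Col4a1 and Col4a2 encode the 2 chains of the common type IV network. They lie head to head on chromosome 8, Col4a1 on the minus strand from 11198423 to 11312826 and Col4a2 on the plus strand from 11312805 to 11449287, so that their annotated starts overlap by 22 bases. Col4a1 had 108.9, 189.3, 244.1 and 304.2 in WT and 956.2, 395.2, 6437 and 299.9 in DKO. Col4a2 had 155, 166.1, 224.1 and 259.7 in WT and 1037, 453.3, 5615 and 214.2 in DKO. In both genes DKO 3 stood far above all other libraries and DKO 4 lay within the range of WT. Both were called, with log2 fold changes of 3.25 (SE 0.94, edgeR adjusted p = 0.037) and 3.18 (SE 0.90, edgeR adjusted p = 0.0333), but the exact permutation p was 0.0571 and 0.0857. Each call was lost in 6 of the 8 fits that left out 1 library, namely those without WT 1, WT 2, WT 3, WT 4, DKO 1 or DKO 3. Without DKO 3 the log2 fold change was 1.38 for Col4a1 and 1.50 for Col4a2.

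Col4a5 and Col4a6, also placed head to head, lie on the X chromosome with 1308 bases between them. Col4a5 (141475385 to 141689234) had 28.3, 32.7, 44.3 and 18.4 in WT and 350.9, 80.2, 324.8 and 159.9 in DKO. Its groups were apart, DKO 3 with its low Xist lay between DKO 1 and DKO 4, and the log2 fold change was 2.88 (SE 0.52, edgeR adjusted p = 0.00663). Col4a6 had 15.7, 20.7, 0 and 0 in WT and 139.7, 30.2, 51.3 and 14.6 in DKO, and was not called (log2 fold change 2.69, SE 1.27, edgeR adjusted p = 0.159). The pair of Col4a3 and Col4a4 on chromosome 1, known from the kidney, stayed at or under 82.5 normalized counts in every library, and neither was called (log2 fold changes 0.41 and 1.48). Col15a1 was not tested, with at most 25 raw counts in any library.

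The genes of the other class were mostly less abundant, and all 18 genes tested had a log2 fold change above 1. Of these, 7 were called and 9 had every DKO library above every WT library. A fold change could rest on DKO 1, as in Col17a1, with 0 to 18.9 in WT and 82, 20.9, 2.44 and 0 in DKO (log2 fold change 1.47, edgeR adjusted p = 0.497). Col6a1 and Col6a2, chains of the beaded filaments around cells, neighbor each other on chromosome 10. Col6a1 (76708792 to 76726168) had 88, 17.2, 157.2 and 72.6 in WT and 1130, 356.9, 384.6 and 456.6 in DKO (log2 fold change 2.80, SE 0.63, edgeR adjusted p = 0.0142, and 0.0518 without WT 4). Col6a2 (76595762 to 76623630) had 73.3, 96.4, 129.4 and 99.7 in WT and 1368, 353.4, 432.2 and 552.7 in DKO (log2 fold change 2.76, SE 0.44, edgeR adjusted p = 0.00454). Both genes were apart between the groups. The third chain, Col6a3 on chromosome 1, had 57.6, 12.1, 232.8 and 24.5 in WT and 442.4, 143, 378.5 and 451.4 in DKO, where WT 3 lay above DKO 2. It was not called (log2 fold change 2.11, SE 0.82, edgeR adjusted p = 0.0941), but was without WT 3 (3.49, adjusted p = 0.0128) and by DESeq2 with all libraries (2.10, adjusted p = 0.0221).

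Transmembrane collagens stay anchored in the cell surface. Col13a1 had 5.24, 18.9, 33 and 14 in WT and 288.9, 118.6, 192.9 and 154.6 in DKO (log2 fold change 3.39, SE 0.56, edgeR adjusted p = 0.005). Col25a1 had 7.33, 7.75, 4.34 and 16.6 in WT and 258.5, 81.4, 108.7 and 32.4 in DKO (log2 fold change 3.72, SE 0.72, edgeR adjusted p = 0.00857). Both were apart, whereas Col23a1 had 22.4 to 61.2 in WT and 47.6 to 58.5 in DKO outside DKO 1, which reached 776.5 (log2 fold change 2.79, edgeR adjusted p = 0.0732).

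Col26a1, a secreted collagen of the other class on chromosome 5, had 54.5, 24.1, 139 and 75.2 in WT and 1534, 290.6, 555.5 and 431.5 in DKO (log2 fold change 3.26, SE 0.65, edgeR adjusted p = 0.00951). Col8a2, a short-chain collagen of the sheet under the corneal endothelium, had 7.33, 14.6, 21.7 and 2.62 in WT and 165, 27.9, 57.4 and 74.2 in DKO (log2 fold change 2.79, SE 0.75, edgeR adjusted p = 0.028). Col8a2 was apart between the groups, yet its call was lost without WT 1, WT 2, WT 4, DKO 1 or DKO 4, up to an adjusted p of 0.089.

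The FACIT collagens decorate the surface of fibers rather than forming them. Of 7 tested, Col16a1 was called, with 25.1, 35.3, 45.2 and 42.8 in WT and 310, 27.9, 169.7 and 123.3 in DKO (log2 fold change 2.08, SE 0.62, edgeR adjusted p = 0.0401). DKO 2 lay within the WT range, and the call held only without DKO 2 among the 8 fits that left out 1 library. Col14a1 had 46.1, 73.2, 59.9 and 39.3 in WT and 1447, 73.2, 100.1 and 107.6 in DKO. Its log2 fold change of 2.98 (SE 0.97, edgeR adjusted p = 0.0544) fell to 0.77 without DKO 1 (adjusted p = 0.161). The other 5 genes, Col9a1, Col9a2, Col9a3, Col12a1 and Col20a1, had log2 fold changes from 1.59 to 3.41 and were not called by edgeR. DESeq2 called 3 of the 9 FACIT genes higher, namely Col16a1, Col12a1 and Col22a1, of which edgeR did not test the last.

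Members just outside the threshold on edgeR adjusted p were Col14a1 (adjusted p = 0.0544), Col8a1 (0.0557), Col12a1 (0.0599) and Col23a1 (0.0732), Col5a1 (0.0261) missed it on the fold alone, and just inside it were Col16a1 (0.0401) and Col4a1 (0.037). The 15 called genes comprised 12 whose groups were apart, each with the smallest exact permutation p that 4 against 4 allow (0.0286), and 3 whose groups overlapped, Col4a1, Col4a2 and Col16a1. Another 4 genes were apart and not called, namely Col5a1, Col8a1, Col12a1 and Col14a1. In Col14a1 the lowest DKO value, 73.23 in DKO 2, was almost equal to the highest WT value, 73.15 in WT 2. Of the 15 calls, 9 held in all 8 fits that left out 1 library. These were Col1a1, Col1a2, Col3a1, Col5a2, Col4a5, Col6a2, Col26a1, Col13a1 and Col25a1. The 10 members without a test had at most 88 raw counts in any library, a maximum reached by Col22a1 in DKO 1. Among them Col19a1, Col22a1 and Col6a5 had 0 counts in every WT library.

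The libraries differed from each other within each genotype. DKO 1 was the highest of the 8 in 25 of the 34 members tested and in 13 of the 15 called, against 24.2% of all genes tested. In the remaining called genes, Col4a1 and Col4a2, DKO 3 was highest. Within WT, WT 3 was highest in 12 and WT 2 lowest in 7 of the 15 called genes.

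Summed over members, the collagen level per kb was 1000, 764, 1470 and 1350 in WT and 7300, 2350, 3940 and 3350 in DKO. The fibrillar sum was 397, 249, 728 and 556 in WT and 4910, 1430, 1510 and 2250 in DKO. Every DKO library lay above every WT library in both sums. The basement membrane sum was 526, 459, 596 and 684 in WT and 844, 613, 2050 and 643 in DKO, with overlap, and Col18a1 made up most of it in every library but DKO 3. The sum over the other class was 77, 55.3, 151 and 112 in WT and 1550, 304, 381 and 457 in DKO.

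The composition of the collagen transcripts differed accordingly. Fibrillar genes held 40.7% ± 6.85 of the per-kb level in WT and 58.4% ± 13.8 in DKO, with DKO 3 at 38.3% inside the WT range. Col18a1 alone held 44.7% ± 7.0 in WT and 12.4% ± 6.53 in DKO, and its highest DKO library, at 19.8%, lay under the lowest WT library, at 35.2%. In DKO 3, Col4a1 and Col4a2 held 21.9% and 21.5%, against 0.966% to 3.32% in the other libraries.

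**Figure D3:**
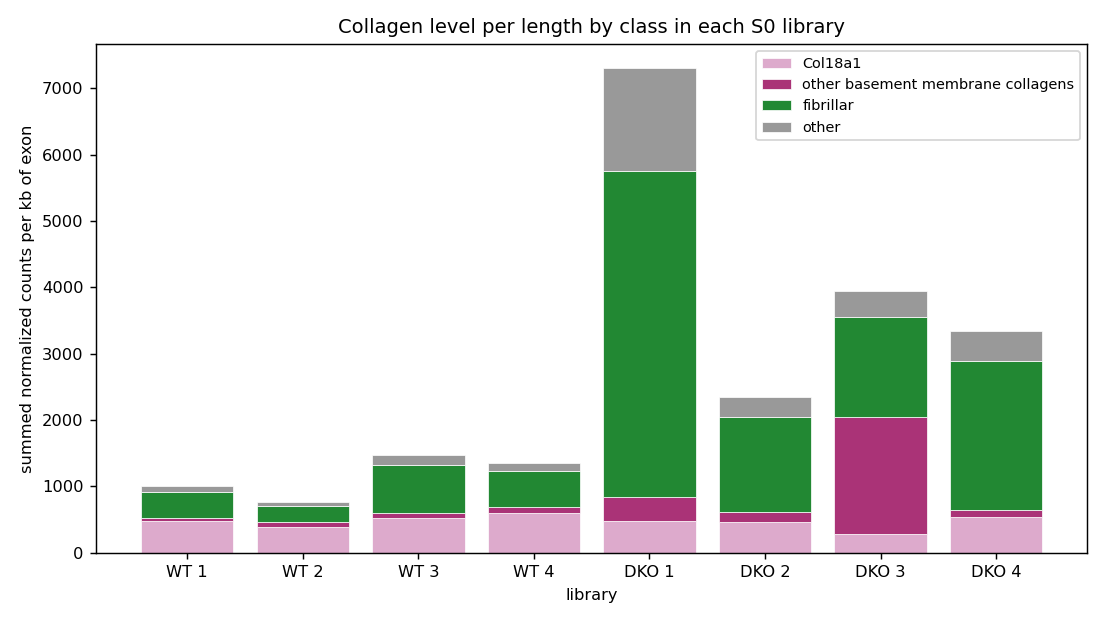
Summed normalized counts per kb of exon in each library, stacked by class with Col18a1 shown apart from the other basement membrane genes. The sums run from 764 to 1470 in WT and from 2350 to 7300 in DKO, and the basement membrane genes other than Col18a1 stand out in DKO 3.

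Ratios between chains were compared per kb. Col1a1 stood at 2.38 to 3.79 times Col1a2 in WT and 1.76 to 2.51 times in DKO, and with the longest transcript as the length at 1.13 to 1.81 and 0.837 to 1.19, and the groups overlapped on both lengths. Col5a1 stood at 3.1 to 7.02 times Col5a2 in WT and 0.56 to 1.65 times in DKO, without overlap. The ratio of Col6a1 to Col6a2 was 0.339 to 2.31 in WT and 1.57 to 1.92 in DKO, with overlap. Col3a1, which joins a different molecule, stood at 0.3 to 0.383 times Col1a1 in WT and 0.398 to 0.613 times in DKO, also without overlap. Col4a1 over Col4a2 overlapped between the genotypes and ranged from 0.623 to 1.24 over all 8 libraries, DKO 3 included at 1.02, although the level of both genes varied by far more. These ratios are descriptions and were not tested.

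Genes that act on collagen were counted in 6 lists. Of 76 genes listed, 71 were tested, of which 30 were called higher and 1 lower, against 6.19% and 2.43% of all genes tested. The median over the 71 was 1.09 on the log2 scale, against 0.03 over all genes.

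The list of chain modification and folding held 20 genes, and 7 of them were called higher (median 0.44 on the log2 scale). Serpinh1, the collagen chaperone HSP47, had 2771, 2625, 4063 and 3779 in WT and 30320, 11200, 16640 and 13890 in DKO (log2 fold change 2.44, SE 0.30, edgeR adjusted p = 0.00208). Its groups were far apart and DKO 1 was again the highest. The others called were P3h3 (2.80), P4ha2 (2.26), Plod2 (1.39), P3h4 (1.34), Fkbp10 (1.29) and Creb3l1 (1.26), given as log2 fold changes. P3h3 and P4ha2 hydroxylate prolines, Plod2 hydroxylates lysines, and Creb3l1 is a transcription factor of the secretory pathway. The remaining 13 were not called. P4hb, the most abundant of the list, missed the fold threshold alone (-0.36, edgeR adjusted p = 0.0422). It had 32820 to 38430 in WT and 22540 to 31210 in DKO. The prolyl hydroxylase P4ha1 lay higher in every DKO library than in any WT library (0.47, edgeR adjusted p = 0.0718). Others not called were Ppib (0.07), Colgalt1 (0.04), the prolyl hydroxylase P3h1 (-0.14) with its partner Crtap (-0.05), and the lysyl hydroxylases Plod1 (0.09) and Plod3 (0.19).

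In the list of secretion and propeptide removal, 2 of 10 genes were called higher, against 6.19% of all genes, namely Adamts2, which cuts the N-propeptide (3.63), and Pcolce, which aids the cutting of the C-propeptide (1.39). The export factors Mia3 (-0.20), Mia2 (-0.01) and Sec23a (-0.17) were not called, and the median was -0.09, against 0.03 over all genes. Of the 12 genes for cross-linking and fibril partners, 8 were called higher, with a median of 2.41. They were the lysyl oxidases Loxl1 (3.78), Lox (3.45) and Loxl3 (2.43), the small proteoglycans Bgn (2.91), Lum (2.39) and Dcn (2.25), and the matrix proteins Sparc (3.33) and Postn (1.52). Fn1, the most abundant of this list in WT, had 6447 to 8650 in WT and 8729, 10040, 2776 and 8635 in DKO (log2 fold change -0.04, edgeR adjusted p = 0.942), and like Col18a1 was lowest in DKO 3.

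Of the 12 basement membrane partners, 7 were called higher, with a median of 1.57. Besides Lama1 (3.29) they were Pxdn (2.99), which cross-links type IV collagen, the laminin chains Lamb1 (2.98), Lama4 (2.87) and Lama5 (1.86), and the heparan sulfate proteoglycans Agrn (1.58) and Hspg2 (1.05). Lama1 had 24.1, 38.7, 70.4 and 83.1 in WT and 242.7, 70.9, 1730 and 77.3 in DKO, so that DKO 3 stood out as it did for Col4a1 and Col4a2 (SE 1.03, edgeR adjusted p = 0.0487). Lamb1 was also highest in DKO 3, at 2220, with 1942 in DKO 1.

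Of the 9 collagen receptors tested, 2 were called higher, Ddr1 (3.07) and Mrc2 (2.66), and Itga1 was called lower, at 195.8, 268.5, 172.9 and 247.4 in WT and 48.3, 98.8, 36.6 and 52.2 in DKO (log2 fold change -1.90, SE 0.37, edgeR adjusted p = 0.00833). The common chain Itgb1 was not called (-0.19), nor was the platelet receptor Gp6 (-0.23). For collagen breakdown, 4 of 8 genes were called higher, the proteases Mmp2 (2.76) and Mmp14 (1.35) and the inhibitors Timp1 (2.47) and Timp2 (1.89). Timp3 was not called (0.04), nor was the neutrophil collagenase Mmp8, with 77.5, 18.1, 29.5 and 22.7 in WT and 12.6, 0, 0 and 0 in DKO (log2 fold change -3.46, SE 1.28, edgeR adjusted p = 0.0813). The gelatinase Mmp9 had too few counts to be tested, at 5.24, 2.58, 10.4 and 26.2 in WT and 0 in every DKO library. Both lay lower in every DKO library than in any WT library, and DESeq2 called both lower.

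**Figure D4:**
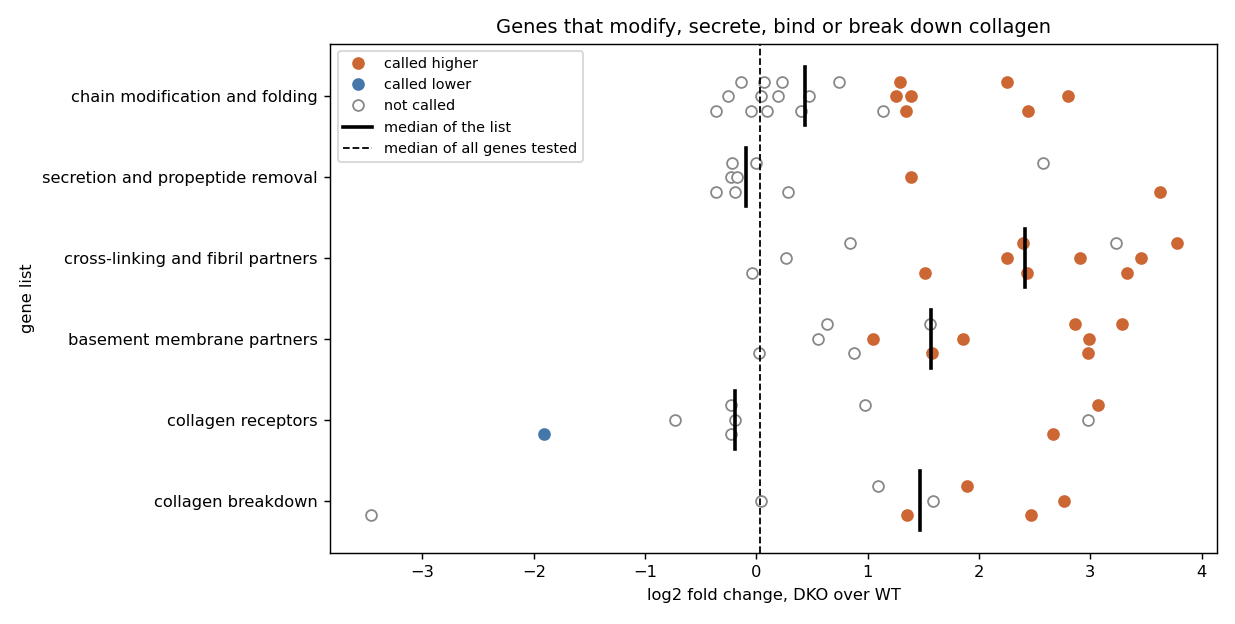
Log2 fold change, DKO over WT, of the 71 tested genes that modify, secrete, bind or break down collagen, by list; filled points were called, bars are the medians of the lists and the dashed line is the median of all genes tested. Medians run from -0.19 for collagen receptors to 2.41 for cross-linking and fibril partners.

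Markers of mesenchyme were higher in DKO, as were the fibrillar and other collagens. Of 14 mesenchyme markers, 12 were tested and 11 called higher, against 6.19% of all genes tested. Their median log2 fold change was 3.38, against 0.03 over all genes. The summed level per kb was 168 to 322 in WT and 724 to 3890 in DKO. Relative to the WT mean, this sum was 15.3, 2.85, 4.53 and 3.82 in DKO 1 to 4, beside 10.2, 2.96, 3.12 and 4.67 for the fibrillar collagens. In the same libraries Col4a1 and Col4a2 together stood at 4.85, 2.07, 29.1 and 1.23, and Col18a1 at 0.97, 0.934, 0.57 and 1.07. Pdgfra, a receptor of mesenchymal cells, lay between 34.4 and 209.4 in WT and at 2821, 563.8, 859.5 and 997.8 in DKO (log2 fold change 3.48, edgeR adjusted p = 0.00683). Pdgfrb was the tested marker not called (0.21), and Thy1 and Dpt had too few counts, with Dpt at 0 in 7 libraries. The part of these cells in the collagen result was not tested.

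Of 8 mesothelium markers 7 were tested and 5 called higher, against 6.19% of all genes tested. Upk3b was at 4.06, Krt19 at 3.63 and Wt1 at 2.87 on the log2 scale, the largest counts of Upk3b and Krt19 being in DKO 3. Msln was at 0 in every library but DKO 3, and the summed level, set mainly by Krt8 and Podxl, was 2240 to 3090 in WT and 2690 to 3230 in DKO. Of 6 cartilage markers, Sox9 was called higher (1.60), Matn1 and Hapln1 were not, Acan and Cnmd were near 0, and Snorc was at 0 everywhere, with sums of 49.8 to 152 in WT and 140 to 297 in DKO. The part of these cells in the result was not tested.

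Hepatoblast markers summed to between 330000 and 451000 per kb in WT and between 96200 and 375000 in DKO. Their median log2 fold change was -0.81. In 4 of the 10 hepatoblast markers every DKO library lay below every WT library, a pattern of 14.6% of all genes. By edgeR 0 of the 10 were called, 4 had an unadjusted p under 0.05, all of these lower in DKO, and DESeq2 called 2 lower. DKO 3, the library lowest in Col18a1, was lowest in this sum as well, at 0.246 of the WT mean, beside 0.57 for Col18a1. The part of these cells in the level of Col18a1 was not tested. None of the 10 was at 0 in any library. Endothelium markers summed to between 3550 and 3780 in WT and between 2330 and 4060 in DKO, with a median log2 fold change of -0.80 over the 10. Egfl7 set most of this sum, with a mean of 2740 of 3620 per kb in WT, and was not called (log2 fold change 0.06). By edgeR Pecam1 was called lower (-1.14) and Tie1 missed the fold threshold (-0.99, adjusted p = 0.0203), while DESeq2 called 3 lower. In 4 of the 10, every DKO library lay below every WT library, against 14.6% of all genes. No endothelium marker was called higher by edgeR or DESeq2 or was higher at an unadjusted p under 0.05. Of 10 erythroid markers edgeR and DESeq2 called 0, with 2 higher at an unadjusted p under 0.05, and sums from 27700 to 63100 in WT and from 20100 to 79500 in DKO, and Klf1 was between 9622 and 17170 normalized counts in all 8 libraries.

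Of 9 genes tied to the lineage gate 4 were tested, and Ptprc and Itgam were called lower, against 2.43% of all genes tested. All 4 had every DKO library below every WT library, a pattern of 14.6% of all genes. The sums were 266 to 474 per kb in WT and 49.8 to 184 in DKO, with Cd8a and Ly6g at 0 everywhere. Ptprc held a mean of 201 of 374 per kb in WT. It was counted over the whole gene, while the gate's antibody was against the CD45R/B220 form. Among 6 macrophage markers Adgre1 was called lower. The most abundant of them, Csf1r, had 1932 to 2672 in WT and 62 to 1261 in DKO and was not called (-1.63, edgeR adjusted p = 0.0961). In 2 of the 6, every DKO library lay below every WT library. The summed level of the 6 was 629 to 860 per kb in WT and 249 to 571 in DKO. Neither edgeR nor DESeq2 called a gene of these 2 lists higher, and none was higher at an unadjusted p under 0.05.

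**Figure D5:**
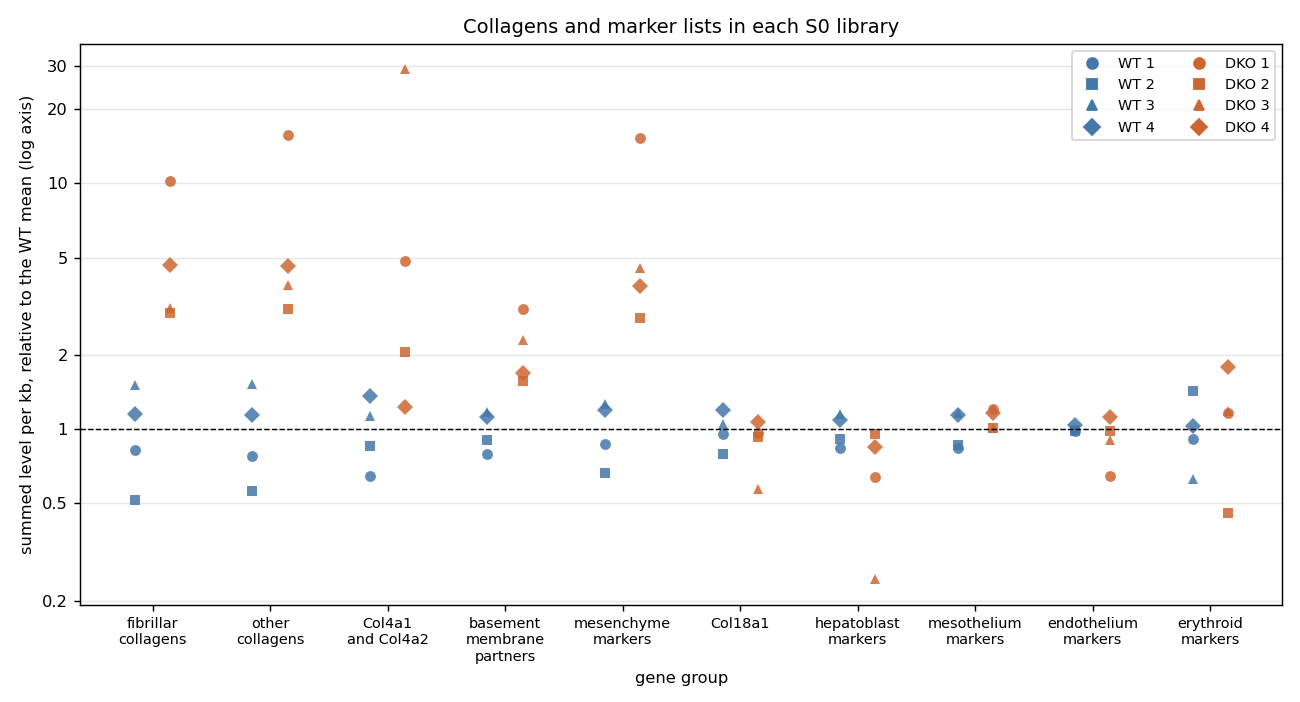
Summed level per kb of collagen groups and marker lists in each library relative to the mean of the 4 WT libraries, on a log axis, with WT in blue and DKO in orange. DKO 1 is highest in fibrillar and other collagens and in mesenchyme markers (10.2, 15.7 and 15.3), while DKO 3 is highest in Col4a1 and Col4a2 (29.1) and lowest in Col18a1 and hepatoblast markers (0.57 and 0.246).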

How the data were processed

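RNAseq of S0 cells gave 1 deposited table of whole-number counts per gene, not normalized, for 4 WT and 4 DKO libraries named by genotype and replicate in the labels. The authors trimmed reads with fastp 0.21.0, mapped them with HISAT2 2.2.1 to mm10 (the build also called GRCm38), dropped alignments of low quality, and counted with StringTie 1.3.3b and prepDE. The strand setting is not given in the sources used here, so reads in the shared ends of overlapping genes cannot be assigned with certainty. Of 52636 identifiers, 52489 matched the GENCODE M21 annotation, which gave symbols, coordinates and exon lengths.

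Counts were filtered with filterByExpr, scaled by TMM and tested with edgeR 4.0.16 (R 4.3.3, robust quasi-likelihood, no covariate, Benjamini-Hochberg over 17378 genes). Exact two-sided permutation tests of log2(normalized count + 1) used all 70 arrangements. No source states that each library is a separate embryo, and p-values then measure only the spread between these libraries. Libraries of a group differed by far more than counting error (chi-square per gene at least 18.8), so none was counted as a copy. At these depths the spread between libraries, not counting error, limits the abundant genes.

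Described in full were the called members, the 12 most abundant per kb and the partner chains of types I, III, IV and VI. Of the pathway lists, called genes and up to 3 more of the highest level were named. Other genes named were chosen after their values were seen. The members and lists were chosen with earlier results of these data known. Same-numbered libraries did not deviate together (correlations from -0.0893 to 0.0433). Alternatives were DESeq2 1.42.0, 2 other scalings, 2 other filters, protein-coding genes only, no fold threshold, a replicate block, each library left out, and the longest transcript as length; leaving out DKO 1 and DKO 3 was added after the data were seen. Steps were also run on simulated counts with the same spread for every gene and no library set apart. That run cannot check calls that depend on DKO 1 or DKO 3.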

Additional observations from a re-analysis of the deposited data

Results flagged for a closer look

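In 8 of 46 groups of 4 values examined, the highest library stood apart from the other 3. The gap was a larger part of the group's range than Dixon's critical value at 95%. That value is set for normally distributed values, whereas these were normalized counts and sums without a log scale. The number flagged therefore cannot be set against a rate by chance. The values of members are not independent, since they come from the same libraries.

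DKO 1 was the library set apart in 5 of these. It had 1362 normalized counts of Col5a1 against 699 to 766.7 in the other DKO libraries, 2746 of Col5a2 against 513.8 to 721, 1447 of Col14a1 against 73.2 to 107.6, and 1130 of Col6a1 against 356.9 to 456.6. Its summed level of the other class was 1550 per kb against 304 to 457.

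DKO 3 was set apart in the remaining 3. It had 6437 normalized counts of Col4a1 against 299.9 to 956.2, and 5615 of Col4a2 against 214.2 to 1037. Its summed level of the basement membrane class was 2050 per kb against 613 to 844. In DKO 3, Lama1 (1730) and Krt19 (861.9) were also the highest of all 8 libraries, and Alb (17210) and Afp (96780) the lowest.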

How the results depend on the processing

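The 15 collagen genes called higher became 10 to 18 when 1 library was left out (10 without WT 1 or WT 4), 16 with library size alone or upper-quartile scaling, 12 without the low-count filter, 13 with at least 10 counts in every library (20 members left), 19 with DESeq2, 16 without a fold threshold, 15 among protein-coding genes and 12 without DKO 1 and DKO 3. The count called lower was 0 in all of these. Over all genes, 1076 were called higher in the main fit. Leaving out 1 library gave 566 (without WT 1) to 1148 (without DKO 3), and 633 without WT 4. Library size alone gave 1068, upper-quartile scaling 1228, no low-count filter 926, and at least 10 counts in every library 857. DESeq2 gave 1653 of 30390 genes, no fold threshold 1867, protein-coding genes 856, and 815 remained without DKO 1 and DKO 3. Called lower were 423 in the main fit and 243 to 521 with 1 library left out. Upper-quartile scaling moved the median of all genes to 0.14, from 0.03. The basement membrane median of 2.69 ranged from 1.50 (without DKO 3) to 3.01 when 1 library was left out. Without DKO 1 and DKO 3 it was 1.16 and the median of the other class 1.84. That fit also turned Col18a1 to 0.011 (adjusted p = 0.97). The cause was not tested. Of 316 further values of named genes, 262 stayed on their side of the threshold, 39 lost a call and 14 gained one. Class shares moved by less than 1 SD with the longest transcript as length.

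With replicate number as a block, 12 collagen genes were called higher, beside 613 of all 17378 genes. Col4a1 (adjusted p = 0.125), Col4a2, Col16a1 and Col8a2 lost their calls and Col6a3 gained one (0.0387). The numbers do not pair the libraries.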
